A study of Mus musculus with 32 samples.

Results

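Wild-type E0771 cells grown as tumours in Rag1-/- mice were compared with wild-type E0771 cells grown in culture, which are 8 of the 32 libraries of the series. The 5 tumours and the 3 cultures were taken from 2 deposited tables that list the same gene symbols, joined by symbol, with each library scaled to reads for every 1000000 reads it holds (RPM). E0771 cells come from a mammary tumour of a C57BL/6 mouse, and the study asks about the role of DDR1, a receptor tyrosine kinase that binds collagen. The tumour group (tumours 1 to 5) is labelled with the cell line E0771 DDR1 WT and the strain Rag1-/-. The culture group, also labelled E0771 DDR1 WT, holds 1 library each of parental cells (E0771-P), cells titled EV (called empty vector here) and cells titled Ctrl (called control cells here). Both groups therefore carry an intact Ddr1. The Ddr1 knockout arm of the same 2 tables, 5 knockout tumours in Rag1-/- mice and 2 knockout cultures (derivatives 3-6 and 3-7), was used for comparison. Wild-type tumours at day 4 after transfer into C57BL/6 mice, 4 libraries in another table, are given beside a few genes.

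Mice without Rag1 cannot rearrange antigen receptor genes and so lack mature T and B cells. They keep macrophages, granulocytes, dendritic cells, natural killer (NK) cells, blood vessels and fibroblasts. A culture carries the label of the cell line, and its purity was not tested. The parental culture stood above the other cultures in some host cell markers, as given below. A tumour sample holds RNA of the cancer cells and of these host cells together. Both sources are mouse, so a read cannot be assigned to one of them. In such bulk samples, fewer cells of a type and less RNA per cell cannot be told apart. Genes outside a fixed naming rule (the largest calls, and first members and largest calls of each list) were chosen after their values were seen. The labels give neither the culture medium, the time of harvest nor the age and sex of the hosts, and do not say that libraries came from separate animals or cultures.

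Depth was 18967300 to 25516204 reads in the tumours and 29270919 to 37425032 reads in the cultures. The tumours and the cultures were sequenced separately and sit in separate tables that were normalized separately. Scaling each library to RPM replaces the normalization of the tables but not the separate sequencing. Sequencing, table and condition thus cannot be told apart, and no p-value is given between the groups. A gene is called higher or lower here where the mean of log2(RPM + 0.5) differed by 4-fold or more and no tumour overlapped any culture. The log2 differences below are on this scale, which understates the change of low genes. The parental culture stood apart from the other cultures: the chi-square per degree of freedom over genes was 62.0 and 65.1 between it and the others, 12.2 between the other two, and 7.52 to 17.3 between pairs of tumours. Ddr1 itself (chromosome 17, 35681567 to 35704621, GRCm38) had 187, 189, 175, 179 and 174 RPM in the tumours and 178, 171 and 213 RPM in the parental, empty vector and control cultures. The groups overlapped, with a log2 difference of −0.05 (SE 0.10). Some genes that every cell uses are listed at or near 0 in all 8 libraries, such as Hmgcs1 at 0 and Eno1 below 0.1 RPM, but stood at medians of 46.5 and 1065 RPM at day 4. A value of 0 in these tables can thus be a failed count, and 4807 symbols were at 0 in all 8 libraries.

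Most tested markers of macrophages and blood vessels and most genes of the interferon response were higher in the tumours, with part of the genes of antigen presentation and the extracellular matrix, and a smaller group of genes expressed by the cultured cells, led by Nos2 and Lcn2, was lower. Of 12537 genes tested, 979 were called higher (7.81%) and 124 were called lower (0.989%). The median difference over all genes was 0.04. Differences over 16-fold were found for 320 genes that were higher and for 8 that were lower. Of the genes called higher, 163 had no read in any of the 3 cultures. Together the genes called higher held 3.62% of the tumour reads and 0.283% of the culture reads, and those called lower held 0.0680% and 0.510%. Counting any size of difference, every tumour lay above every culture for 36.1% of genes and below every culture for 29.3%. The median coefficient of variation of genes with 10 RPM or more in both groups was 6.45% among tumours and 8.53% among cultures.

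**Figure D1:**
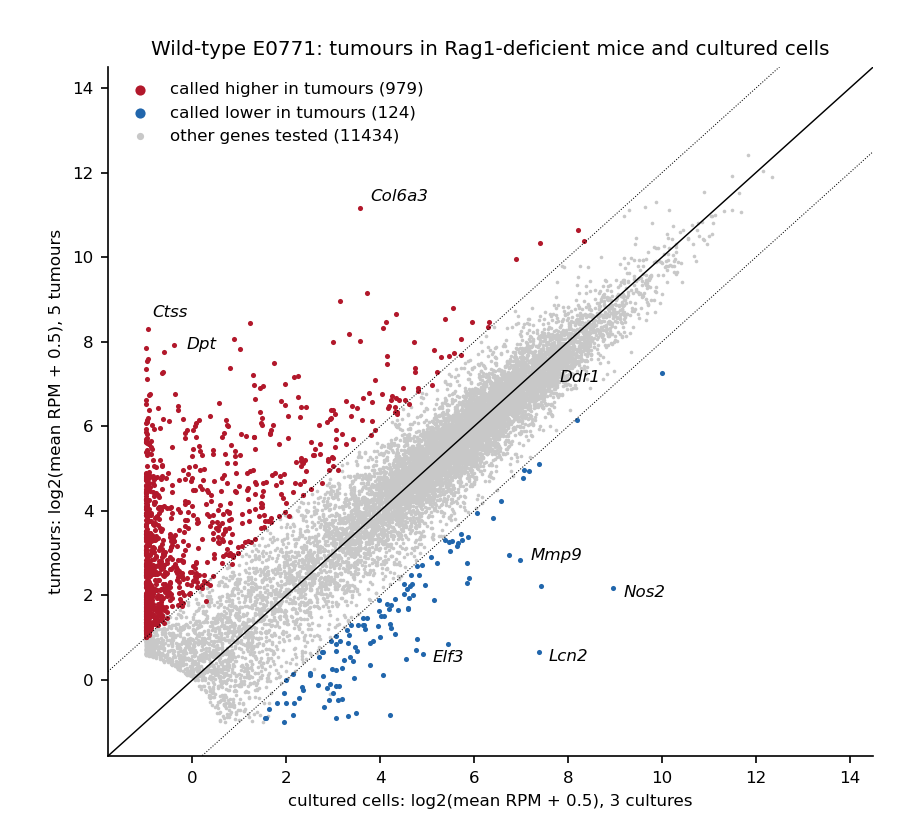
Mean level of each tested gene in the 5 tumours (vertical axis) and in the 3 cultures (horizontal axis), both as log2(mean RPM + 0.5). Red points are the 979 genes called higher in tumours, blue points the 124 called lower, grey points the rest, and dotted lines mark 4-fold. Red points crowd the left edge, where the cultures had no or almost no reads, whereas Ddr1 sits on the diagonal.

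The genes with the largest differences included several genes of macrophages. Ctss (chromosome 3, 95526786 to 95556403), which encodes the lysosomal protease cathepsin S, had 309, 349, 298, 269.5 and 346 RPM in tumours 1 to 5. The parental and control cultures had 0.0342 and 0.0267 RPM, 1 read each, and the empty vector culture had none. The ratio of the pooled rates was 16324 (exact 95% interval 4519 to 134798, counting error only). The 3 chains of complement C1q, which macrophages secrete, moved alike. C1qa had 165 to 202 RPM in the tumours and 1 read in the cultures. C1qb had 167 to 218 RPM in the tumours and 2 reads in the cultures. C1qc had 141 to 187 RPM in the tumours and no read in the cultures, so that it was at least 5688-fold higher (floor of 3 reads over the 3 cultures). These genes lie side by side on chromosome 4, between 136880129 and 136898803. Mpeg1, the gene for the pore-forming protein perforin-2 of phagocytes, averaged 216 ± 16.4 RPM in tumours and 0.160 ± 0.116 RPM in cultures (SD, n = 5 and 3). Sirpa, the inhibitory receptor that binds CD47, had 117 to 159 RPM in tumours and 1 read in the cultures.

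Others among the 12 largest differences include genes of secreted and matrix proteins. Igfbp3, which encodes a secreted binding protein of insulin-like growth factors, had 237, 204, 229.8, 293 and 196 RPM in tumours 1 to 5 and no read in any culture. It was at least 7999.8-fold higher by the same floor. Dpt encodes dermatopontin, a matrix protein of fibroblasts. It had 273, 284, 277, 203 and 178 RPM in the tumours, against 0.102, 0.190 and 0.481 RPM in the parental, empty vector and control cultures. Col6a3, a chain of collagen VI, had 2044 to 2614 RPM in tumours and 8.61 to 16.7 RPM in cultures, a log2 difference of 7.66 (SE 0.30). Slfn4, an interferon-inducible gene of myeloid cells, had 104 to 183 RPM in tumours and 0.107 to 0.171 RPM in cultures.

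**Figure D2:**
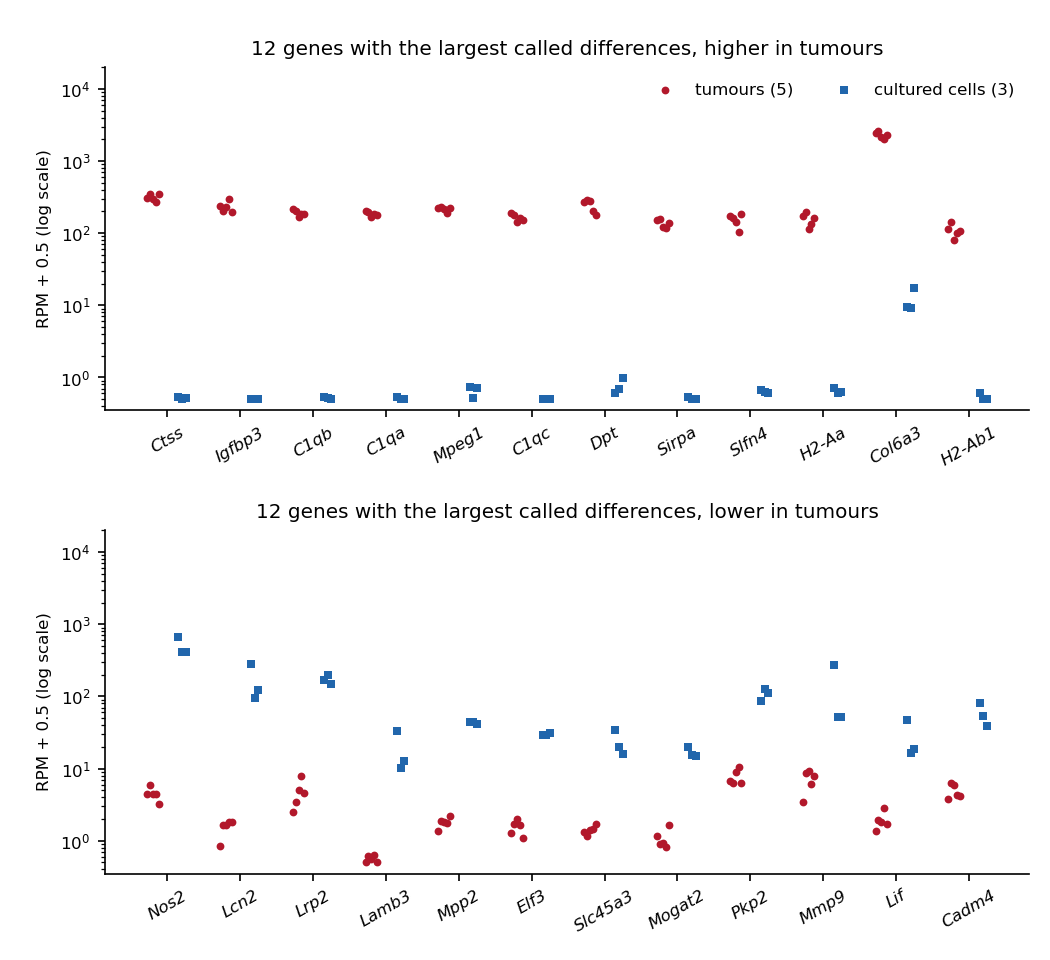
Level of the 12 genes with the largest called differences in each direction, as RPM + 0.5 on a log axis, with 1 red circle for each of the 5 tumours and 1 blue square for each of the 3 cultures. In each of the 24 genes the tumours and the cultures do not overlap. Lcn2 has its low tumour, tumour 1, apart from the others, and the parental culture lies well above the other cultures for Mmp9, Lamb3 and Lif.

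Markers of macrophages and monocytes were higher almost throughout. Of 17 list members tested, 15 were called higher and none lower, against 7.81% and 0.989% of all genes, with a median log2 difference of 6.65 (6.78 with the members that had no culture read at their lower bound). All 17 lay above the cultures in every tumour. The summed level of the list was 1278 to 1530.3 RPM in the tumours, against 50.9 RPM in the parental and 21.0 and 16.1 RPM in the empty vector and control cultures. Adgre1, listed by its older symbol Emr1 and encoding the F4/80 antigen, averaged 69.3 ± 8.29 RPM in tumours and 0.208 ± 0.177 RPM in cultures. Cd68, a lysosomal glycoprotein of macrophages, was expressed in culture as well. It had 87.0 to 102 RPM in tumours and 41.4, 17.6 and 13.2 RPM in the parental, empty vector and control cultures. Its call rests on single cultures, since the log2 difference of 2.09 became 1.75 without the control culture and 1.96 without the empty vector culture. Cd14 and Cd163, whose differences of 1.56 and 1.75 were under 4-fold, were the 2 members not called.

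Receptors through which macrophages take up antibody-coated or dead material followed the same pattern. Of 11 genes of the list of Fc receptors and phagocytosis, 9 were called higher, against 7.81% of all genes, with a median of 6.04. Fcer1g, the signalling chain shared by activating Fc receptors, had 71.0 to 92.8 RPM in tumours and 0.0267 to 0.171 RPM in cultures. Tyrobp, which encodes the adaptor DAP12 of myeloid and NK cell receptors, had 64.8 to 70.6 RPM in tumours and 1 read in the cultures. Fcgr1, the high-affinity receptor for IgG, had 40.1 to 57.6 RPM in the tumours and no read in the cultures. Fcgr2b, the inhibitory Fc receptor, had 62.6 to 85.2 RPM in tumours and 0.0534 to 0.273 RPM in cultures. The 2 members not called were Mertk and Axl, receptor kinases for dead cells. Axl averaged 1200.3 ± 59.1 RPM in tumours and 945 ± 44.2 RPM in cultures.

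Among complement genes, 10 of 14 were called higher and 1 was called lower, against 7.81% and 0.989% of all genes. The genes for C1q are described above, and Cfb, the protease of the alternative pathway, averaged 70.1 ± 12.1 RPM in tumours and 0.603 ± 0.189 RPM in cultures. Counting any size, 3 of the 14 lay below every culture in every tumour, against 29.3% of all genes. C3, the central component, was the one called lower. It had 113, 164, 174, 144 and 167 RPM in tumours 1 to 5, against 1154, 911 and 994 RPM in the parental, empty vector and control cultures, a log2 difference of −2.75 (SE 0.15). The C1q genes and C3 thus went opposite ways, with no overlap between groups in either.

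Of the genes for chemokines, which attract leukocytes, 10 of 17 were called higher and 1 lower, against 7.81% and 0.989% of all genes. Counting any size, 4 of the 17 lay below every culture in every tumour, against 29.3% of all genes. Ccl9 had 44.4 to 61.0 RPM in tumours and no read in the cultures, and Ccl6 had 42.8 to 66.9 RPM in tumours and 1 read. Both encode attractants of myeloid cells in mice. Ccl2, which draws monocytes and was named as the first member of its list, stood at 156 to 226 RPM in tumours and at 355 to 568 RPM in cultures, a difference of −1.07 that is under 4-fold. Cxcl1, a neutrophil attractant, was the member called lower, with 0.407 to 1.32 RPM in tumours, against 4.41 to 12.3 RPM in cultures.

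Neutrophil markers did not form a common picture. Of 11 list members 4 passed the filter on low values, with 1 called higher and 1 called lower, against 7.81% and 0.989% of all genes. The alarmin gene S100a8 had 1.57 to 3.32 RPM in tumours and 1.71 to 4.07 RPM in cultures, with overlap, and S100a9 did not pass the filter. Ly6g is not among the symbols measured. Csf3r, the receptor for the granulocyte growth factor, averaged 12.4 ± 1.30 RPM in tumours and had no read in the cultures. Mmp9 was lower and is described with the genes that fell.

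NK cell markers, cells that Rag1-/- mice keep, were present at low levels. Of 9 genes tested, 7 were called higher, against 7.81% of all genes. The median difference was 2.69 (6.00 with bounds for the 6 members without a culture read). All 9 lay above the cultures in every tumour, against 36.1% of all genes. Gzmb, which encodes the protease granzyme B of killer cell granules, had 13.0, 11.4, 8.86, 9.50 and 9.38 RPM in tumours 1 to 5. Gzma, the gene for granzyme A, averaged 7.87 ± 1.31 RPM in tumours. Neither had a read in any culture, which makes them at least 361-fold and 273-fold higher. Ncr1, the receptor NKp46, had 1.32 to 2.35 RPM in the tumours and no read in the cultures. Klrb1c, the NK1.1 antigen, had 0.633 to 1.57 RPM and no culture read, but its difference of 1.77 was under 4-fold. At these levels the number called depends on the pseudocount, being 3 with 2 RPM and 9 with 0.1 RPM.

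Most T and B cell markers were at or near 0. Cd3e had no read in any of the 8 libraries and Cd3d had at most 0.0784 RPM in a tumour. Of the 10 T cell markers measured 8 did not pass the filter, and none of those 8 exceeded 1.02 RPM in a library. The 2 that passed were Cd4 and Lck. Lck, a kinase of T cell receptor signalling, had 2.37 to 3.92 RPM in tumours and 2.08 to 2.46 RPM in cultures, with overlap. Cd4 was called higher. It had 7.17, 7.88, 6.96, 4.75 and 5.01 RPM in tumours 1 to 5 and 1 read in the cultures, a ratio of 661 (exact 95% interval 118 to 26129). CD4 is a T cell coreceptor and is also found on some myeloid cells. Of the B cell and plasma cell markers 1 of 8 measured was tested, and it was not called. In the red blood cell list, the beta-globin symbol Beta-s had 5.17 to 15.9 RPM in tumours and 1 read in the cultures, whereas the alpha-globin genes are listed at 0 in all 8 libraries.

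All genes of the blood vessel lining that were tested were higher. The endothelial list had 14 of 14 members called higher, against 7.81% of all genes, with a median log2 difference of 4.80 (5.06 with bounds). Prox1 of lymphatic vessels was not tested. The summed level of the list was 282 to 347 RPM in tumours and 2.77 to 9.12 RPM in cultures. Pecam1, an adhesion molecule of endothelium and platelets, had 54.0 to 73.2 RPM in tumours and 0.380 to 2.46 RPM in cultures. Cdh5, which encodes VE-cadherin of endothelial junctions, had 56.6, 50.4, 54.4, 67.1 and 55.7 RPM in tumours 1 to 5. It had 0.752, 0.299 and 0.134 RPM in the parental, empty vector and control cultures. Plvap, a protein of endothelial fenestrae, averaged 33.1 ± 3.19 RPM in tumours and 0.0658 ± 0.0919 RPM in cultures. Of 14 members tumour 4 was the highest tumour in 9, against 18.1% of all tested genes and 12.2% of those called higher.

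Fibroblast genes were split between those absent from culture and those the cultured cells already expressed. Of 14 members 8 were called higher, against 7.81% of all genes, with a median of 2.71. Postn, the matricellular protein periostin, had 53.7 to 117 RPM in tumours and no read in the cultures, which makes it at least 3182-fold higher. Dcn, the small proteoglycan decorin, had 6.43 to 13.1 RPM in tumours and 0.0272 to 0.0802 RPM in cultures. Pdgfra, a receptor for platelet-derived growth factor used as a fibroblast marker, had 94.4 to 152 RPM in tumours and 63.0 to 94.6 RPM in cultures, with overlap. Vim, the intermediate filament vimentin, averaged 5495 ± 561 RPM in tumours and 3646 ± 12.9 RPM in cultures. Pericyte genes gave 4 called higher and 1 lower of 9, against 7.81% and 0.989% of all genes. Rgs5, a pericyte regulator of G protein signalling, had 5.06 to 8.89 RPM in tumours and 0 to 0.171 RPM in cultures. Acta2, smooth muscle actin, was the member that fell, to 62.4 to 79.0 RPM in tumours, against 247 to 344 RPM in cultures.

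Adipocyte genes varied widely between the tumours. The list summed to 24.4 to 88.5 RPM in tumours, with overlap. The parental, empty vector and control cultures had 56.1, 19.7 and 15.6 RPM. Cfd, the gene for adipsin, had 0.458, 10.7, 7.06, 20.2 and 32.4 RPM in tumours 1 to 5, and 2 reads in the cultures. Adipoq, the gene for the adipocyte hormone adiponectin, had 0.153, 1.69, 1.53, 4.08 and 4.91 RPM in the same order and 1 read in the cultures. Tumour 1 was the lowest and tumour 5 the highest for both. Of 7 members 3 were called higher, against 7.81% of all genes. Adipoq fell under 4-fold without tumour 4 (1.96) or without tumour 5 (1.90). Tumour 1 also stood apart in muscle and skin genes. Acta1, the actin of skeletal muscle, had 10.8 RPM there and 0.133 to 0.274 RPM in the other tumours, and 16.7, 0.679 and 1.15 RPM in the parental, empty vector and control cultures. Krt5 and Krt14, keratins of basal epidermis, had 2.54 and 3.81 RPM in tumour 1 and at most 0.178 and 0.316 RPM in the others. The part of these tissues in other differences was not tested. Without tumour 1 and the parental culture together, 1023 genes were higher and 118 lower, of which 961 and 111 were among those called with all libraries.

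**Figure D3:**
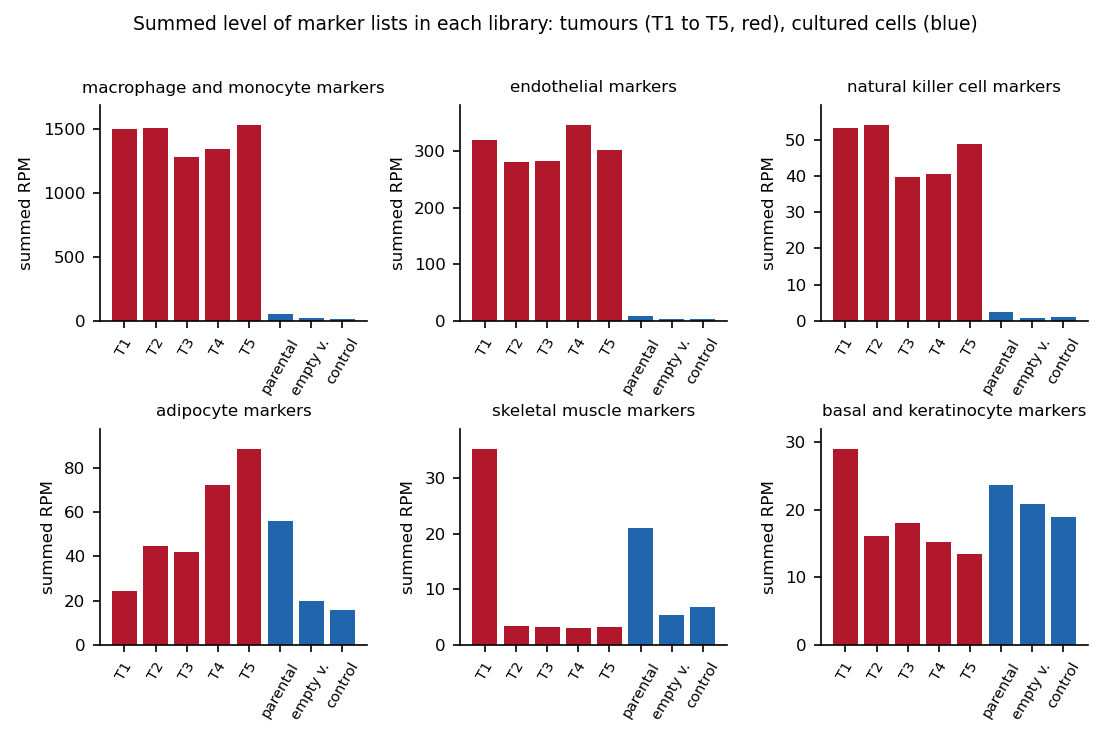
Summed level of 6 marker lists in each library, in RPM, with the 5 tumours (T1 to T5) in red and the parental, empty vector and control cultures in blue. Macrophage, endothelial and NK sums separate tumours from cultures. Among the tumours, adipocyte sums are lowest in T1 and highest in T5, but the parental culture (56.1 RPM) exceeds T1, T2 and T3. The muscle sum is highest in T1 (35.4 RPM) and next in the parental culture (21.0 RPM).

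Genes of the extracellular matrix were divided between calls and levels shared with the cultures. Of the matrix glycoproteins and proteoglycans 7 of 11 were called higher, against 7.81% of all genes, with a median of 2.74. Fn1, which encodes fibronectin, had 56.9, 85.4, 48.1, 71.8 and 95.6 RPM in tumours 1 to 5, whereas the parental culture had 1.09 RPM and the other cultures had none. Thbs1, the adhesive glycoprotein thrombospondin-1, had 37.4 to 43.5 RPM in tumours and 1 read in the cultures. Fbn1, the microfibril protein fibrillin-1, had 16.1 to 37.7 RPM in tumours and 0.0815 to 0.991 RPM in cultures. Among the fibrillar collagens and their processing enzymes 6 of 15 were called higher, against 7.81% of all genes. Col1a2, the second chain of collagen I, had 36.1 to 144 RPM in tumours and 2 reads in the cultures, a ratio of 4454 (exact 95% interval 1233 to 36782). Col3a1, the chain of collagen III, averaged 499 ± 117 RPM in tumours and 8.39 ± 3.56 RPM in cultures. The partner chain Col1a1 behaved differently, with 329, 540.1, 196, 81.7 and 201 RPM in tumours 1 to 5 and 49.2, 27.7 and 78.9 RPM in the parental, empty vector and control cultures. Its difference of 2.23 (SE 0.63) lost the call without tumour 2 (1.91) or without the empty vector culture (1.84).

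Basement membrane genes were also divided. Col4a1 and Col4a2, the common chains of collagen IV, stood at 1542 and 653 RPM in tumours and at 1339 and 549.8 RPM in cultures, with differences of 0.20 and 0.24. They share a promoter region and overlap on opposite strands only between 11312805 and 11312826 on chromosome 8. Only reads in that short stretch are uncertain between them. Lama4, a laminin chain of vessels, had 17.9 to 27.8 RPM in tumours and 3 reads in the parental culture alone. Nid2, which links laminin and collagen IV, had 18.3 to 29.3 RPM in tumours and 0 to 0.171 RPM in cultures, and overlaps Rtraf on the other strand. In all 4 of 13 members were called higher and none lower, against 7.81% and 0.989% of all genes, with a median of 0.20. Of the matrix proteases and their inhibitors 6 of 17 were called higher and 1, Mmp9, lower, against 7.81% and 0.989% of all genes. Mmp12, the elastase of macrophages, had 54.5 to 70.0 RPM in tumours and 0 to 0.102 RPM in cultures, and Mmp2, gelatinase A, had 50.4 to 132 RPM in tumours and 9.54 to 16.6 RPM in cultures. Mmp3, stromelysin-1, had 3.42 to 10.6 RPM in tumours and 3.18 to 4.82 RPM in cultures, with overlap. Tgfbi, a matrix protein induced by transforming growth factor beta, had 451 to 635 RPM in tumours and 7.58 to 20.8 RPM in cultures, and was the 1 gene called of 12 of that pathway, against 7.81% of all genes.

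Among collagen receptors 2 of 7 were called higher, against 7.81% of all genes. Counting any size, 4 of the 7 lay above every culture in every tumour and 1 below, against 36.1% and 29.3% of all genes. Lair1, the inhibitory collagen receptor of leukocytes, had 15.0 to 19.4 RPM in tumours and 1 read in the cultures. Mrc2, a collagen uptake receptor, had 5.09, 5.45, 2.06, 3.60 and 5.11 RPM in tumours 1 to 5 and 2.02, 0.272 and 0.0802 RPM in the parental, empty vector and control cultures. Tumour 3 and the parental culture nearly met, and under 3 of the other scalings they overlapped. The difference of 2.13 became 1.91 without the empty vector culture and 1.71 without the control culture. Ddr2, the second discoidin domain receptor, had 424 to 492 RPM in tumours and 209.6 to 218 RPM in cultures, a difference of 1.06 (SE 0.04) that is under 4-fold.

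Antigen presentation genes were higher to different extents. In the class II pathway, through which professional antigen-presenting cells show peptides to CD4 T cells, 5 of 8 genes were called higher. Over all genes 7.81% were called higher, and the median of the class II list was 4.94. H2-Aa (chromosome 17, 34282744 to 34287823) had 173, 196, 113, 134 and 161 RPM in tumours 1 to 5, against 0.205, 0.109 and 0.134 RPM in the parental, empty vector and control cultures. H2-Ab1, the partner chain, had 79.1 to 141 RPM in tumours and 3 reads in the parental culture. The peptide-loading genes H2-DMa and H2-DMb1 averaged 15.6 and 23.8 RPM in tumours and 24.0 and 19.1 RPM in cultures, with differences of −0.62 and 0.32. In the class I pathway, used by most nucleated cells, every tumour lay above every culture for all 10 genes, against 36.1% of all genes, and 4 of the 10 were called. H2-K1 had 985, 1036, 1019.9, 981 and 991 RPM in tumours 1 to 5, against 153, 105 and 94.9 RPM in the parental, empty vector and control cultures. H2-D1 had 2232 to 2424 RPM in tumours and 666 to 1003 RPM in cultures, under 4-fold. Psmb9, a subunit of the immunoproteasome that overlaps Tap1 on the other strand, had 88.9 to 104 RPM in tumours and 6.31 to 14.4 RPM in cultures.

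The interferon response list was called higher in 22 of 23 genes, against 7.81% of all genes, with a median of 4.72. Interferons bind their receptors and switch on antiviral genes such as the Ifit, Oas and Gbp families. Ifi44 (chromosome 3, 151730922 to 151749960) had 165, 153, 164, 129.6 and 216 RPM in tumours 1 to 5, against 3.38, 0.136 and 0.214 RPM in the parental, empty vector and control cultures. Oas2, a sensor of double-stranded RNA, had 91.1 to 148 RPM in tumours and 5.47, 0.244 and 0.187 RPM in the parental, empty vector and control cultures. Ifit1, which binds foreign RNA, had 133 to 218 RPM in tumours and 1.47 to 4.71 RPM in cultures. Ifit2 had 82.1 to 143 RPM in tumours and 25.1 to 31.0 RPM in cultures, just at 4-fold, and lost the call under 3 other scalings (1.95 to 1.98) and without tumour 1, tumour 5, the parental culture or the control culture (1.91 to 1.98). The summed level of the list was 2306 to 3773 RPM in tumours, against 371 RPM in the parental and 144 and 153 RPM in the empty vector and control cultures. Without the parental culture the median difference was 5.28. Ifit, Oas and Gbp genes have close relatives whose shared reads the counting could split, so their single values are uncertain.

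Promoters of these genes were read from RefSeq (GRCm38.p6), which gave the 250 bases before and 50 after the start for 17 of the 23 genes. The letters GAAA, any 2 bases and GAAA again, the core of the interferon-stimulated response element, were present on either strand in 11 of the 17 (64.7%), against 3.85% of the 8863 tested genes with a promoter and 11.9% of the 656 genes called higher that had one. The stretches below are the 150 bases before the start of 4 of these genes, shown because the capitals mark this element in each. They were chosen after their values were seen. Overlapping matches run together in Isg15 and Gbp3. Their positions are chr19:34583379-34583528 (+ strand) for Ifit3, chr19:34640739-34640888 (+) for Ifit1, chr3:142559894-142560043 (+) for Gbp3 and chr4:156200819-156200968 (− strand) for Isg15.
Ifit3: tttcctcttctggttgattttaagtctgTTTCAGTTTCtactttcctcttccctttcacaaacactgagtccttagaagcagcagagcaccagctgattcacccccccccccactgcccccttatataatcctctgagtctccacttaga
Ifit1: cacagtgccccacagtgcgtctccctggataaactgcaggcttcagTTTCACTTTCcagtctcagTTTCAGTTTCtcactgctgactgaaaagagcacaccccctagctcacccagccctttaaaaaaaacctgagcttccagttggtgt
Gbp3: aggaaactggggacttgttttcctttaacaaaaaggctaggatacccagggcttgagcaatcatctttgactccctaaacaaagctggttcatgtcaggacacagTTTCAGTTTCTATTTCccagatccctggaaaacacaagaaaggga
Isg15: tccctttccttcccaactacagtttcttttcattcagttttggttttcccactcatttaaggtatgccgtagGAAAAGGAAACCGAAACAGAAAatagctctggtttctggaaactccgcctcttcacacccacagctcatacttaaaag

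The 4 genes printed were all called higher. Ifit3 averaged 67.7 ± 15.1 RPM in tumours and 0.551 ± 0.444 RPM in cultures, Gbp3 100.2 ± 21.2 RPM in tumours and 2.02 ± 2.05 RPM in cultures, and Isg15 177 ± 34.1 RPM in tumours and 17.3 ± 13.8 RPM in cultures (SD, n = 5 and 3). A second element, the Y box of class II genes (CTGATTGG, either strand), was looked for in the promoters of the class II list. It was present in 3 of 5 genes with a promoter, H2-Aa, H2-Eb1 and H2-Oa, against 6.66% of tested genes and 4.73% of those called higher. It is printed here for 1 gene that was called and 1 that was not. H2-Aa (chr17:34287824-34287973, − strand) was called higher, and H2-Oa (chr17:34092229-34092378, + strand) averaged 0.766 RPM in tumours and 1.14 RPM in cultures. The box GAGGAAGT bound by the myeloid factor PU.1, was found in 2 of 12 macrophage marker genes with a promoter (16.7%), against 3.87% of tested genes and 9.30% of those called higher. A match in such a window is a description of its letters and not of binding.
H2-Aa: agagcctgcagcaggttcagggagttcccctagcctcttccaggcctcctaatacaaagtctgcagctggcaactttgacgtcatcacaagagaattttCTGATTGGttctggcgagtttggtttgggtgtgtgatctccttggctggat
H2-Oa: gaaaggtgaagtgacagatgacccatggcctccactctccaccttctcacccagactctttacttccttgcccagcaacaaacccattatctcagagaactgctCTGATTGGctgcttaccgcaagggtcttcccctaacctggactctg

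**Figure D4:**
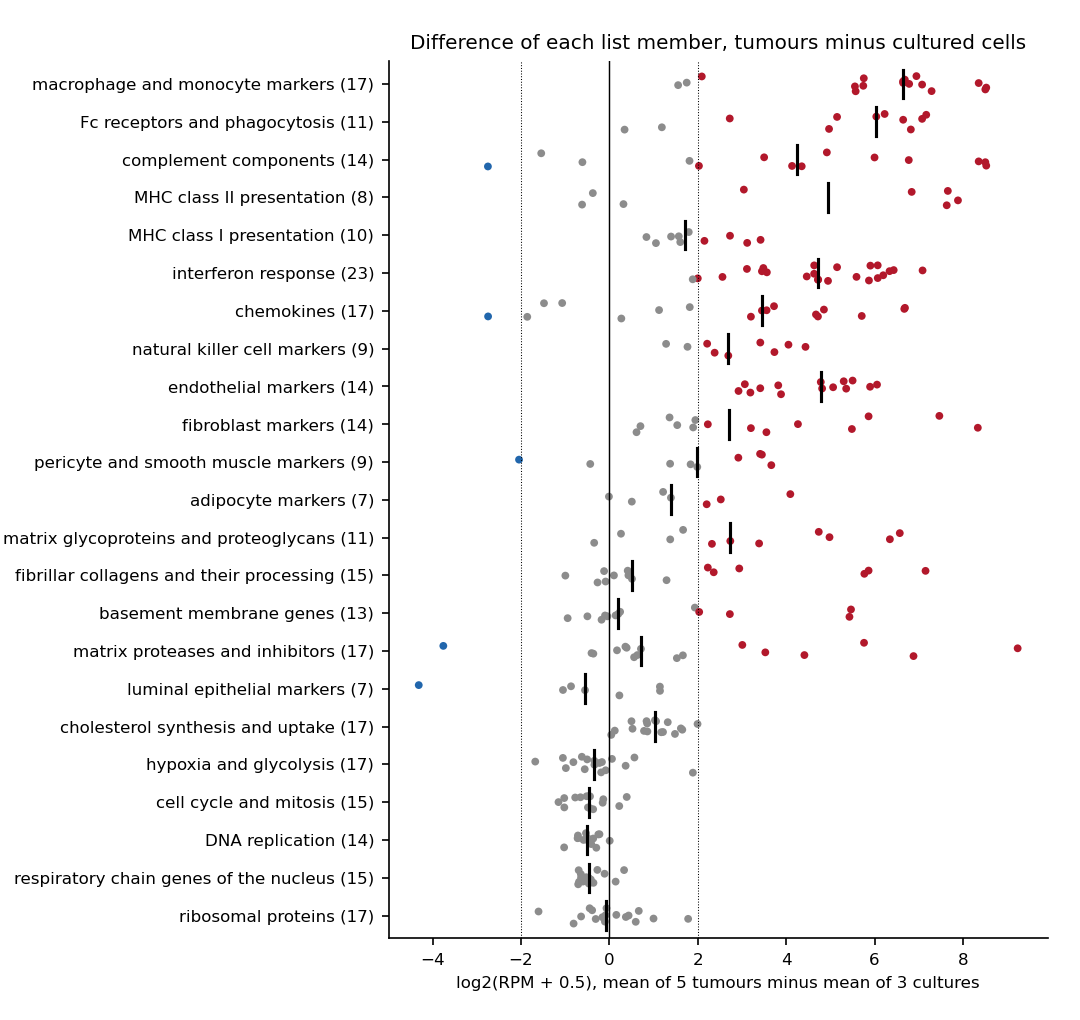
Log2 difference, tumours minus cultures, of each tested member (points) of 23 gene lists, with the number of tested members after each name. Red points were called higher, blue points lower and grey points neither, black bars are list medians and dotted lines mark 4-fold. Immune, vessel and matrix lists extend to the right, whereas the lists for cell cycle, DNA replication and the respiratory chain sit slightly left of 0 with no call.

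The genes that fell were led by Nos2 (chromosome 11, 78920787 to 78960254), which encodes inducible nitric oxide synthase. It had 3.92, 5.37, 3.95, 3.99 and 2.70 RPM in tumours 1 to 5, against 671, 410.2 and 417 RPM in the parental, empty vector and control cultures. The log2 difference was −6.79 (SE 0.27). Lcn2, the iron-binding secreted protein lipocalin-2, fell to 0.356, 1.18, 1.16, 1.33 and 1.33 RPM in tumours 1 to 5, against 278, 94.4 and 124 RPM in the same cultures. Lrp2, the large endocytic receptor megalin, fell to 2.03 to 7.41 RPM in tumours, against 146 to 198 RPM in cultures. In wild-type tumours at day 4 in C57BL/6 mice, from another table, Nos2 had a median of 617 RPM (429.6 to 708), Lcn2 of 26.1 RPM and Lrp2 of 8.12 RPM. The labels give polyA RNA for the day 4 libraries and total RNA for the others.

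Others among the 12 largest falls encode proteins known from epithelia. Elf3, an epithelial transcription factor, had 0.763, 1.21, 1.48, 1.15 and 0.589 RPM in tumours 1 to 5, against 28.9, 28.3 and 31.1 RPM in the parental, empty vector and control cultures. Pkp2, a desmosomal plaque protein, fell to 5.72 to 10.2 RPM in tumours, against 85.2 to 126 RPM in cultures. Lamb3, a chain of the epithelial laminin 332, fell to 0 to 0.133 RPM in tumours, against 9.59 to 32.3 RPM in cultures, and overlaps 2 genes on the other strand. Cadm4, a cell adhesion molecule, fell to 4.40 ± 1.16 RPM in tumours, against 57.1 ± 21.1 RPM in cultures. Of the 7 tested members of the luminal epithelial list Elf3 was the 1 called lower. Counting any size, 4 of the 7 lay below every culture in every tumour and 2 above, against 29.3% and 36.1% of all genes, with a median of −0.55. Krt8, a keratin of simple epithelia, had 219 to 319 RPM in tumours and 204 to 238 RPM in cultures, and Epcam was at or below 1.07 RPM in all 8 libraries.

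Among secreted factors, Mmp9, gelatinase B, fell to 2.90 to 8.86 RPM in tumours, against 271, 52.2 and 51.6 RPM in the parental, empty vector and control cultures. Lif, a cytokine of the interleukin-6 family, fell to 0.865 to 2.35 RPM in tumours, against 15.8 to 46.7 RPM in cultures, and had a median of 39.0 RPM at day 4. Slc45a3, a sugar transporter, Mogat2, an enzyme of triglyceride synthesis, and Mpp2, a membrane scaffold protein, complete the 12 largest falls. Mpp2 had 0.865 to 1.72 RPM in tumours and 41.5 to 43.8 RPM in cultures. Gsta4, a glutathione transferase, fell to 0.393 to 0.976 RPM in tumours, against 4.78 to 12.7 RPM in cultures, the only 1 of 11 genes of the Nrf2 list to be called.

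Most proliferation genes lay slightly below the cultures without passing 4-fold. None of 15 cell cycle genes was called, yet every tumour lay below every culture for 10 of them and above for 2, against 29.3% and 36.1% of all genes, with a median difference of −0.46. Mki67, the antigen Ki-67, had 176, 170.0, 174, 180.5 and 206 RPM in tumours 1 to 5, against 297, 471 and 466 RPM in the parental, empty vector and control cultures. Top2a, topoisomerase II alpha, had 645 to 750.0 RPM in tumours and 1261 to 1494 RPM in cultures. None of 14 DNA replication genes was called either, with 11 below the cultures in every tumour. Mcm2, a subunit of the replicative helicase, had 179 to 190.1 RPM in tumours and 299 to 304 RPM in cultures. Of 15 nuclear genes of the respiratory chain 12 lay below the cultures in every tumour, with a median of −0.46 and no call. The summed levels of macrophage and endothelial markers, given above, were higher in the same tumours, and their part in these shifts was not tested.

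Cholesterol synthesis and uptake genes stood on the other side of 0. Of 17 genes none was called, but 13 lay above the cultures in every tumour, against 36.1% of all genes, with a median of 1.03. Idi1, an isomerase of the pathway, came closest to a call with 4.98 ± 0.701 RPM in tumours and 0.873 ± 0.161 RPM in cultures, a difference of 1.99. Hypoxia and glycolysis genes gave no call of 17, with 2 above and 7 below the cultures in every tumour, against 36.1% and 29.3% of all genes. Car9, the carbonic anhydrase induced by low oxygen, had 5.34 to 11.1 RPM in tumours and 1.09 to 2.44 RPM in cultures, a difference of 1.89 that passed 4-fold without tumour 1 (2.04), without the empty vector culture (2.04) and without the control culture (2.03). Vegfa, the vascular growth factor, had 167 to 214 RPM in tumours and 199.6 to 234 RPM in cultures, with overlap. No call was made among 12 genes of the unfolded protein response or 11 p53 target genes. Over all genes 7.81% were called higher and 0.989% lower, rates at which a list this short can hold none. Counting any size, 6 and 3 of them lay above every culture in every tumour, and 1 and 3 below.

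In other regulatory and growth factor lists a few members were called higher. They were 1 of 17 in the amino acid response and 1 of 11 among YAP and TEAD targets, against 7.81% of all genes, 3 of 14 immediate early genes and 4 of 15 growth factors and receptors. Atf5, a stress-induced transcription factor, had 108 to 157 RPM in tumours and 12.2 to 15.6 RPM in cultures, while Asns, the asparagine synthetase of the same amino acid response, had 366 to 424 RPM in tumours and 558 to 639.5 RPM in cultures. Atf5 overlaps Nup62 and Il4i1 on the other strand. The immediate early genes Fos and Egr1 had 12.9 to 45.6 and 4.18 to 6.27 RPM in tumours, against 1.60 to 2.70 and 0.107 to 0.171 RPM in cultures. Egr2 was the other immediate early gene called. Nt5e, which encodes the ectoenzyme CD73, had 289 to 373 RPM in tumours and 29.5, 10.6 and 8.52 RPM in the parental, empty vector and control cultures. Igf1, the insulin-like growth factor, had 7.46 to 11.9 RPM in tumours and no read in the cultures, which makes it at least 329-fold higher. Pdgfb, the growth factor of pericytes, had 15.1 to 18.8 RPM in tumours and 0.109 to 0.376 RPM in cultures. Xist, the RNA of the inactive X chromosome, had 74.9 to 108 RPM in tumours, against 12.9, 0.244 and 0.134 RPM in the parental, empty vector and control cultures, and 4 Y-linked genes had no read in any tumour.

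The same difference was then read in libraries not used above, 5 Ddr1 knockout tumours and 2 knockout cultures of the same 2 tables. There 1055 of 12444 genes were called higher (8.48%) and 58 lower (0.466%). Of the genes called higher in the wild-type arm, 922 were called higher in the knockout arm, which is 94.2% of the wild-type and 87.4% of the knockout calls. Of those called lower, 49 were shared, which is 39.5% of the wild-type and 84.5% of the knockout calls. The sign was the same for 978 of 979 genes that were higher and 123 of 124 that were lower. Col1a1 was one exception, with a difference of −0.39 in the knockout arm, where tumours had 189 to 541 RPM and cultures 248 to 729.9 RPM. Prickle1 was the other, and it was singled out after its values were seen. Lamb3 differed in size, with 0.771 and 3.49 RPM in the knockout cultures, against 9.59 to 32.3 RPM in the wild-type cultures. The median difference of the genes called lower was −2.50 in the wild-type arm and −1.84 in the knockout arm, which the choice of these genes by the wild-type arm can set. As both arms come from the same pair of tables, this does not separate the condition from the tables or their sequencing.

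**Figure D5:**
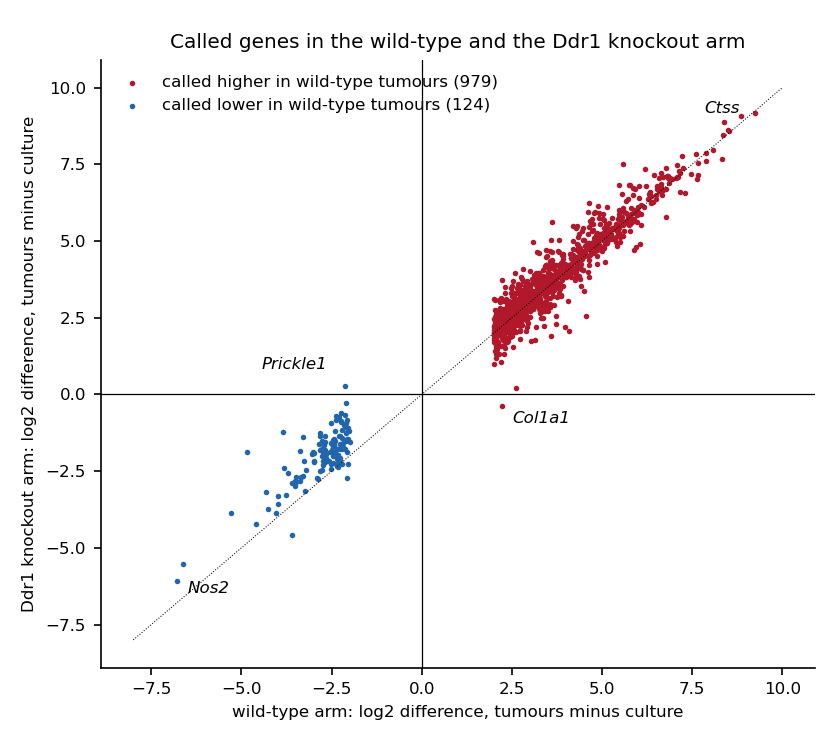
Log2 difference, tumours minus cultures, in the wild-type arm (horizontal axis, 5 tumours and 3 cultures) and in the Ddr1 knockout arm (vertical axis, 5 tumours and 2 cultures) for the genes called in the wild-type arm, red higher and blue lower. The dotted line marks equal differences. Nearly all points share their sign, Col1a1 and Prickle1 being the exceptions, and most blue points lie above the line.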

How the data were processed

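RNA was taken up in Trizol and libraries were made from about 500 ng with the Illumina TruSeq stranded mRNA guide, per the labels' protocols. CASAVA, TopHat and DESeq2, with the build mm10, are named per the submitters' processing notes. How reads were counted, and whether by strand, is not given in the sources used here. The authors deposited normalized values per gene and library (unit signal, read counts divided by a size factor). Dividing each library by its smallest value above 0 gave whole reads within 0.01 for 100% of values in the 15 libraries of the 2 tables used for calls. The 22609 symbols, 25 of them turned into dates, were joined, and reads were scaled to RPM. A further 25 columns were not used.

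Genes entered with a mean of the 2 group means of 0.5 RPM or more. No gene-wise test was made across tables. As alternatives, limma 3.58.1 was run on log2(RPM + 0.5), and edgeR 4.0.16 (quasi-likelihood) and DESeq2 1.42.0 on recovered reads, in R 4.3.3, with other scalings, pseudocounts, filters, folds and each library left out. Their p-values would measure only the spread between these libraries, which may be technical. Intervals and floors cover counting error only.

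Named genes are the 12 largest calls in each direction with a mean of 5 RPM or more and no predicted name, the first 2 members and the 2 largest calls of each of 46 lists, and Ddr1. Others were chosen after their values were seen. The members and lists were chosen with earlier results of these data known. Positions are from GENCODE on GRCm38, promoters from RefSeq. A position was found for 139 genes named by rule, of which 2 overlapped a gene on the same strand and 13 one on the other strand. Python 3.11.15, pandas 2.3.3, scipy 1.17.1 and matplotlib 3.10.9 were used. Some genes of the lists are not reported here.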

Additional observations from a re-analysis of the deposited data

Results flagged for a closer look

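Among 126 genes named by rule with 1 RPM or more in a tumour, 8 had 1 tumour far from the other 4 by Dixon's ratio (above 0.71). Chance alone gives about 1 such gene in 20. Tumour 1 accounts for 5 of them. It had 10.8 RPM of Acta1 (0.133 to 0.274 RPM in the others), 2.14 RPM of Ckm, the creatine kinase of muscle (0.488 to 0.896 RPM), 2.54 RPM of Krt5 (0.0527 to 0.178 RPM) and 3.81 RPM of Krt14 (0 to 0.316 RPM). It was low for Lcn2, with 0.356 RPM (1.16 to 1.33 RPM in the others). Tumour 5 was high for Mki67, with 206 RPM (170.0 to 180.5 RPM), and low for Egr1, with 4.18 RPM (6.05 to 6.27 RPM). Tumour 4 was high for the ribosomal protein gene Rpl3, with 181 RPM (131 to 144 RPM), which overlaps Syngr1 on the other strand.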

How the results depend on the processing

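The counts of genes called depend mostly on the pseudocount, the filter and the fold. With 979 genes higher and 124 lower as reported, a pseudocount of 2 RPM gave 528 and 70, and 0.1 RPM gave 1293 and 217. A mean of 5 RPM or more gave 482 higher, a threshold of 2-fold gave 1949 and 765, and 8-fold gave 571 and 30. On the recovered reads at an adjusted p under 0.05 and 4-fold, edgeR called 1313 and 274 and DESeq2 1311 and 258, holding 970 and 967 of the 979 and 124 and 121 of the 124. DESeq2 gave 46 genes no adjusted p. Limma called the same 979 and 124. Its differences and 4-fold limit are those reported, so an adjusted p replaced only the condition of no overlap. The other scalings gave 955 to 980 higher and 123 to 135 lower, and moved the median of all genes by at most 0.05 on the log2 scale. Without 1 library at a time the counts were 952 to 1027 higher and 118 to 145 lower. Of 2408 values of named genes and list medians under alternatives, 2329 kept their call or stayed close to the reported value. Another 46 moved, 27 lost and 6 gained a call. No called gene changed sign. List medians were not checked for sign, and that of the basal epithelial and keratinocyte list (−0.11) ranged from −0.40 to 0.05. No paired analysis was possible because the culture labels carry no replicate numbers.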

Other observations

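Among the tumours, interferon genes had nearly the same order. Tumour 4 was the lowest of the 5 tumours for 22 of 23 genes of the interferon list, against 25.7% of all tested genes, and tumour 5 the highest for 18, against 30.7% of all tested genes. Tumour 4 was also the lowest for 8 of the 10 class I genes and the highest for the other 2. Its summed class I level (6928 RPM) was above that of tumour 1 (6685 RPM). For the class II genes it was tumour 3 that was lowest, in 7 of 8, with tumour 2 the highest in 6. Over all tested genes each of these shares was 19.0%. Tumour 3 was also the lowest for 7 of 11 matrix glycoproteins and proteoglycans, of which tumour 5 was the highest for 7. Over the 979 genes called higher, tumour 4 was the lowest for 37.0% and tumour 3 for 33.6%. Of the same genes tumour 5 was the highest for 33.0% and tumour 2 for 22.4%. These orders were noticed in the data, are over genes of the same 5 libraries and have no test.

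Outside the lists, genes of leukocytes and of lipid handling were among the largest differences, chosen here after their values were seen. Ptprc, the leukocyte antigen CD45, averaged 70.2 RPM in tumours and 0.0091 RPM in cultures. Lpl, lipoprotein lipase, averaged 67.4 RPM in tumours and had no read in the cultures. Apoe, the apolipoprotein E gene, averaged 348 RPM in tumours and 1.84 RPM in cultures. Cybb, the phagocyte oxidase subunit, averaged 73.3 RPM in tumours and 0.0204 RPM in cultures. On the other side, Id3, an inhibitor of helix-loop-helix factors, averaged 6.31 RPM in tumours and 56.9 RPM in cultures, and Erbb3, a receptor of the EGF receptor family, averaged 0.773 RPM in tumours and 13.3 RPM in cultures.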
